A study of Mus musculus with 6 samples.

Results

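The genes described here are 10 markers of muscle stem cells and new muscle: the myogenic factors Myod1, Myog, Myf5 and Myf6, the satellite cell factors Pax7 and Barx2, the fusion genes Mymk and Mymx, and the adhesion genes Cdh15 and Ncam1. They were taken by gene name from the TPM tables, which list 43074 genes, and all 10 were present. The libraries came from mouse soleus, a calf muscle for posture that holds slow and fast fibres. There were 3 WT libraries and 3 StarD7 mKO libraries, from mice whose muscle was to lack the lipid transfer protein StarD7. The labels gave tissue and genotype, while the Cre driver, the deleted exons, strain, age and sex are not given in the sources used here, nor was any treatment named. The series text gave 3 mice a group without tying a library to a mouse, so p-values measure the spread between these samples, which may be technical.

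Adult fibres do not divide. Satellite cells, which lie beside the fibre and are marked by Pax7, are activated after injury, divide as myoblasts that express Myf5 and Myod1, then turn on Myog, leave the cell cycle and fuse. The fusion proteins myomaker (Mymk) and myomixer (Mymx) act in the membrane at that step and are silent in resting muscle. Myf6, also called MRF4, is the myogenic factor that mature fibres keep. Their transcripts therefore serve as signs of regeneration, which the comparison of mKO with WT addresses.

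The 4 myogenic factors are basic helix-loop-helix proteins with nearly the same DNA-binding part. Coding sequence from their basic helix-loop-helix domain is shown to see whether reads could be shared between them. Each line gives 60 bases of the GENCODE M21 transcript, 5′ to 3′, with the 7 codons at the same place in that domain in capitals.
Myod1: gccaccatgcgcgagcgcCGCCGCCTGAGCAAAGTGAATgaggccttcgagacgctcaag
Myog: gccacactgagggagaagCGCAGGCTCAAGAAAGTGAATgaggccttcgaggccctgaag
Myf5: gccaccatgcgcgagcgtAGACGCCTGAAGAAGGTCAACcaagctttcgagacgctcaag
Myf6: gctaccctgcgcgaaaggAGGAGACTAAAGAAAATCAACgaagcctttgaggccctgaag
Barx2, the one of the 10 genes called between the groups, is a homeobox factor and shares no such part. Its line gives 60 bases around the recognition helix of the homeodomain, with 6 codons of that helix in capitals.
Barx2: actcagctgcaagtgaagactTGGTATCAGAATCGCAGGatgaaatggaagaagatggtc
Between 39 and 49 of the 60 bases were identical in each pair of myogenic factors, with Myod1 and Myf5 most alike. Over the whole transcripts the longest run shared by a pair was 26 bases, again in Myod1 and Myf5, and in the other pairs it was 12 to 21. The reads were 50 bases long, so no whole read matches a pair of these transcripts without a mismatch.

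Promoters of 4 of the 10 genes, Myog, Myf5, Pax7 and Cdh15, were in the RefSeq table (build GRCm38.p6, an older build than the GRCm39 of the libraries). Myogenic factors bind the E-box, CANNTG, a motif that reads the same on both strands. Myog and Myf5, the promoters of a late and an early factor, are shown with E-boxes in capitals, from 250 bases before to 50 after the start of the gene. The Myog window is chr1:134289754-134290053 on the plus strand, and the Myf5 window is chr10:107486085-107486384 on the minus strand.
Myog: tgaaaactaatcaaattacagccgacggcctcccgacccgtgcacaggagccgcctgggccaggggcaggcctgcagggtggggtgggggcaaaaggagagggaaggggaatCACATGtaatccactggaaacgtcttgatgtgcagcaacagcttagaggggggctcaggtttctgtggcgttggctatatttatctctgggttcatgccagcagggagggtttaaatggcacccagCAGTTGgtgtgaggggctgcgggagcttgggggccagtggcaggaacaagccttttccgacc
Myf5: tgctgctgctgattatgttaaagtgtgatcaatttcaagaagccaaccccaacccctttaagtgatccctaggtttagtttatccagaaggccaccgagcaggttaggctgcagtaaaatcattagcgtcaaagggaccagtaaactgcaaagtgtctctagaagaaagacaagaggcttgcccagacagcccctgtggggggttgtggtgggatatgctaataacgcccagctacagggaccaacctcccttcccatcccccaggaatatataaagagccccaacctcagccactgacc
The Myog window held 2 E-boxes, which begin 138 and 12 bases before the start, and the Myf5 window held 0. Pax7 held 0 and Cdh15 held 4. Of 32851 promoters of this length 72.3% held at least 1 E-box, 39.6% held 2 or more and 6.5% held 4 or more. These letters describe the windows and say nothing of binding in soleus.

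The libraries were deep. Whole reads worked out from TPM and exon length came to between 42928382 and 51287715 per library, and all 10 genes came out as whole reads. The targeted gene Stard7 stood at 87.5, 95.4 and 94.99 TPM in WT and at 21.8, 21.3 and 34.6 TPM in mKO, so mKO replicate 3 kept the most. The 11 soleus fibre markers summed to 76530 to 83617 TPM in WT and 70611 to 78391 TPM in mKO, with none at 0. The largest part of that sum was the actin gene Acta1, at a mean of 39246 TPM in WT and 34379 TPM in mKO. Of the 11 markers, 6 were above and 5 below 0, with a median log2 fold change of 0.23. Limma called 0 of them and limma-voom 1. WT replicate 3 was the lowest of the 6 libraries for 7 of the 10 genes, all except Myf5, Ncam1 and Barx2, and for 25.3% of all tested genes. Each tested gene is therefore also given without it.

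Across the 6 libraries the 10 genes spanned a wide range, and TPM, being per length, allows them to be ordered. Myf6 was highest at a mean of 114 TPM over the 6 libraries, followed by Barx2 at 41.8 TPM, and each was above the next gene in all 6 libraries. Myod1 (14.6 TPM) and Cdh15 (14.6 TPM) could not be ordered, since Myod1 was higher in 2 of 6 libraries. Myog (7.14 TPM) was above Ncam1 (5.64 TPM) in 5 of 6. Pax7 (1.92 TPM) and Myf5 (1.84 TPM) could not be ordered either, with Pax7 higher in 3 of 6. The fusion genes were lowest, Mymk at 0.728 TPM and Mymx at 0.356 TPM, with Mymk higher in 5 of 6.

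**Figure D1:**
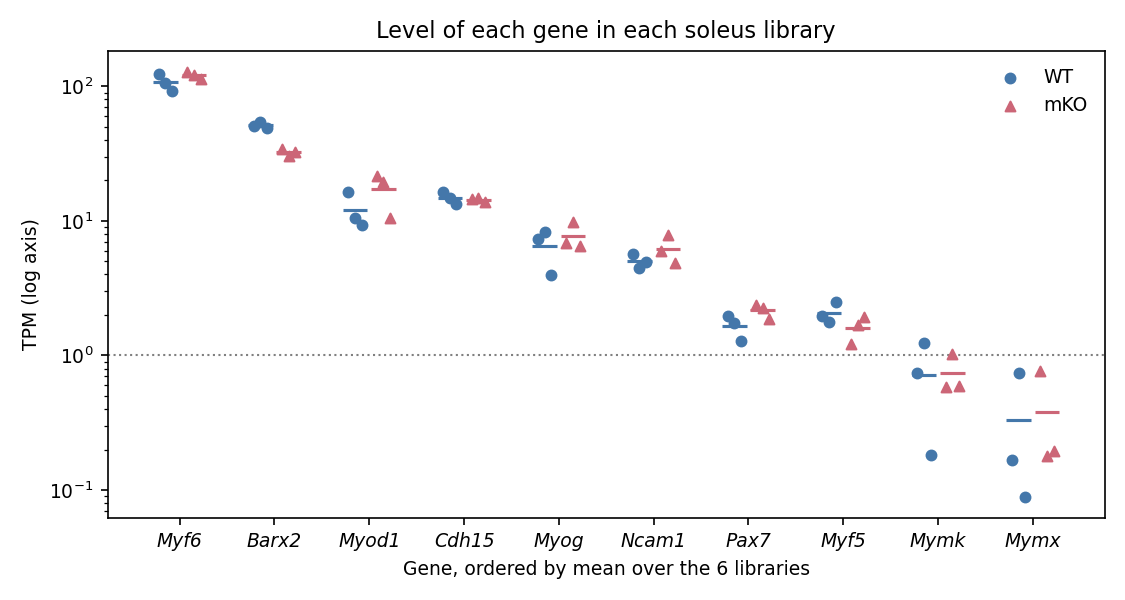
TPM of each gene (log axis) in the 3 WT (circles) and 3 mKO (triangles) libraries, with group means as bars and 1 TPM as the dotted line. Only Barx2 has all mKO libraries below all WT libraries, and Mymk and Mymx lie mostly under 1 TPM.

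Barx2 was lower in mKO, and none of the other 7 genes that could be tested by limma passed. Mymk and Mymx were too low for that test. Barx2, known from satellite cells and myoblasts, where it acts in muscle repair, measured 50.6, 54.1 and 49.2 TPM in WT and 34.3, 30.2 and 32.4 TPM in mKO. Every mKO library lay below every WT library. These values rest on 2304, 2229 and 2111 reads in WT and 1383, 1295 and 1277 in mKO. The mean fell from 51.3 ± 2.53 to 32.3 ± 2.04 TPM (SD, n = 3 each), or by 37.0%. On the log2(TPM + 1) scale the fold change was −0.65 (SE 0.07, 95% confidence interval −0.80 to −0.50, limma adjusted p = 0.0101 over all tested genes), the 12th smallest p of 12301. The exact two-sided permutation p was 0.1, the smallest that 3 against 3 can give.

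Over the whole table limma called 0.520% of tested genes at an adjusted p under 0.05, and 0.423% as lower in mKO, while 10.7% had an unadjusted p under 0.05. Among the 8 of the 10 genes that passed the filter of 1 TPM in at least 3 libraries, 1 was called, and it was lower. Barx2 alone did not overlap between groups, 1 of 8, where 16.0% of all tested genes did not overlap. These counts describe the 8 genes and not all 10.

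The size of the Barx2 fall was alike in all 15 other settings, from −0.69 to −0.54, while its adjusted p ranged from 0.00954 to 0.0946. The call was lost without WT replicate 1 (−0.66, limma adjusted p = 0.0532), without WT replicate 2 (−0.61, adjusted p = 0.0946) and when no low-value filter was set (adjusted p = 0.0742). A block for replicate number lost it as well (−0.65, adjusted p = 0.0554). Without WT replicate 3 the fall was −0.68 (adjusted p = 0.0420). With mitochondrially encoded genes left out, which took 42.1% to 45.1% of TPM in WT and 46.9% to 48.9% in mKO, the fall was −0.54 (adjusted p = 0.0301).

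**Figure D2:**
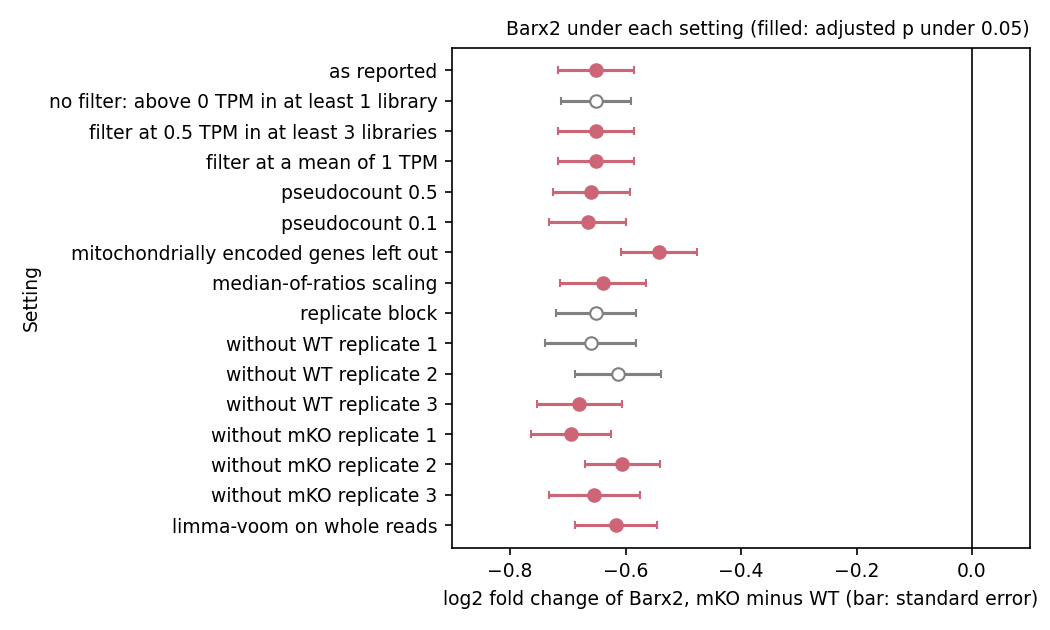
Log2 fold change of Barx2 (mKO minus WT, x axis, bars are standard errors) under each processing setting (y axis). Filled points have an adjusted p under 0.05, the 4 open points (a replicate block among them) do not, and all 16 points lie between −0.69 and −0.54.

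Satellite cell and fast fibre genes are given beside this fall. The satellite cell factor Pax7 had a log2 fold change of 0.25 that did not pass the test. Over the 6 libraries Barx2 averaged 41.8 TPM and Pax7 1.92 TPM. Which cells held the Barx2 RNA was not tested. The 12 fast fibre markers, a list added to the planned ones, all had lower levels in mKO. Their summed level was 45444 to 52051 TPM in WT and 27736 to 35303 TPM in mKO, with none at 0. Of these, limma called 4 as lower, where it called 0.423% of all tested genes as lower. Limma-voom called 7 of the 12, and 92 of 11204 over all genes it tested. All 12 were without overlap between groups, against 16.0% of all tested genes. Their median log2 fold change was −0.62, against −0.01 over all tested genes. The part of the fast fibre genes in the Barx2 result was not tested. In whole muscle, fewer cells of a type and less RNA per cell cannot be told apart.

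The myogenic factors did not differ beyond the spread between libraries. Myf6, the factor of mature fibres, stood at 123, 106 and 91.8 TPM in WT and at 128, 121 and 113 TPM in mKO. The groups overlapped (log2 fold change 0.18, SE 0.10, 95% interval −0.06 to 0.42, limma adjusted p = 0.598). Without WT replicate 3 the value was 0.08. With mitochondrially encoded genes left out it was 0.30 (limma adjusted p = 0.195), a setting that moved the median over all tested genes from −0.01 to 0.09.

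Myod1, which commits cells to the muscle lineage, stood at 16.4, 10.5 and 9.34 TPM in WT and at 21.6, 19.5 and 10.5 TPM in mKO. mKO replicates 1 and 2 were above all WT libraries, while mKO replicate 3 was within the WT range. The mean was 12.1 ± 3.79 TPM in WT and 17.2 ± 5.89 TPM in mKO (SD, n = 3 each). Its log2 fold change of 0.46 was the highest of the 8 tested genes, but its interval ran from −0.18 to 1.10 (SE 0.28, limma adjusted p = 0.629). It ranged from 0.27 to 0.76 over the other settings and was called in 0 of 15. Its value was 0.31 without WT replicate 3 and 0.58 with mitochondrially encoded genes left out.

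Myog, the factor of myoblast differentiation, which also rises after denervation, stood at 7.35, 8.24 and 3.99 TPM in WT and at 6.89, 9.90 and 6.49 TPM in mKO. The groups overlapped, and the lowest value belonged to WT replicate 3. The log2 fold change was 0.25 (SE 0.24, 95% interval −0.30 to 0.80, limma adjusted p = 0.784). Without WT replicate 3 it crossed to −0.02, so its sign rests on that library. With mitochondrially encoded genes left out it was 0.38.

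Myf5, the early factor of satellite cells and myoblasts, went the other way in value. It stood at 1.95, 1.77 and 2.49 TPM in WT and at 1.22, 1.68 and 1.92 TPM in mKO, on 52 to 113 reads a library. The groups overlapped (log2 fold change −0.24, SE 0.14, 95% interval −0.56 to 0.08, limma adjusted p = 0.613). Myf5 was the only one of the 10 genes for which WT replicate 3 was the highest library, and without that library its value was −0.14. Without mKO replicate 1, the lowest, it was −0.13, and with mitochondrially encoded genes left out it was −0.20.

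As a share of the summed TPM of the 4 factors, Myf6 made up 82.7%, 83.9% and 85.3% in WT and 81.2%, 79.6% and 85.7% in mKO. Myod1 took 11.0%, 8.25% and 8.68% in WT and 13.7%, 12.8% and 7.96% in mKO. Both shares overlapped between groups. The ratio of Myod1 to Myog, factors known to be richer in fast and in slow muscle respectively, was 2.23, 1.27 and 2.34 in WT and 3.14, 1.97 and 1.62 in mKO. The ratio overlapped between groups as well.

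**Figure D3:**
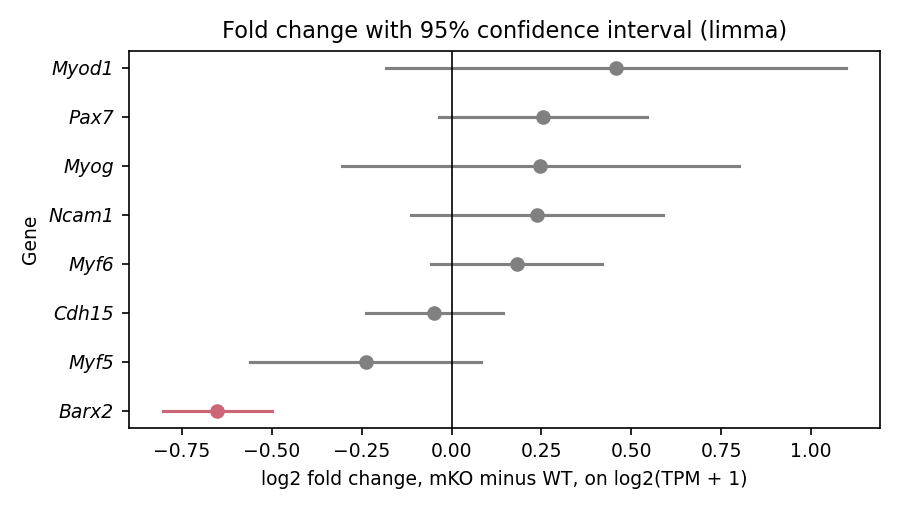
Log2 fold change (mKO minus WT on log2(TPM + 1), x axis) with its 95% confidence interval for the 8 genes that passed the filter (y axis). The interval of Barx2, −0.80 to −0.50, is the only one that leaves out 0, and that of Myod1 is the widest.

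Pax7, which marks satellite cells, stood at 1.96, 1.74 and 1.29 TPM in WT and at 2.37, 2.26 and 1.88 TPM in mKO, on 165 to 288 reads a library. mKO replicates 1 and 2 were above all WT libraries, and mKO replicate 3 was below WT replicate 1. The mean was 1.66 ± 0.342 and 2.17 ± 0.257 TPM (SD, n = 3 each). The log2 fold change of 0.25 did not pass (SE 0.13, 95% interval −0.04 to 0.54, limma adjusted p = 0.542), and it was 0.15 without WT replicate 3. That was the smallest value over the 15 other settings, in which Pax7 was called 0 times. The largest, 0.44, came from limma-voom (adjusted p = 0.385). Dropping the mitochondrially encoded genes gave 0.40 (limma adjusted p = 0.205).

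Neither adhesion gene was called by limma. Cdh15, or M-cadherin, which holds satellite cells to the fibre, stood at 16.5, 14.8 and 13.3 TPM in WT and at 14.5, 14.7 and 13.7 TPM in mKO. All mKO libraries were within the WT range, and the log2 fold change was −0.05 (SE 0.08, 95% interval −0.24 to 0.14, limma adjusted p = 0.894). Without WT replicate 3 it was −0.12. Its sign turned, to 0.06 with mitochondrially encoded genes left out and to 0.02 without WT replicate 1.

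Ncam1, an adhesion molecule of nerve and satellite cells that denervated and regenerating fibres also show, stood at 5.69, 4.49 and 4.98 TPM in WT and at 5.996, 7.83 and 4.83 TPM in mKO. mKO replicate 2 was the highest, and the groups overlapped (log2 fold change 0.24, SE 0.15, 95% interval −0.11 to 0.59, limma adjusted p = 0.647). Without mKO replicate 2 the value was 0.08, and without WT replicate 3 it was 0.23. With mitochondrially encoded genes left out it was 0.36. Nerve is a further source of Ncam1: the 10 Schwann cell and nerve markers summed to 88.1 to 124 TPM in WT and 93.2 to 123 TPM in mKO, with none at 0 in all libraries. Of the 8 tested, limma called 0, with 0 at an unadjusted p under 0.05 and 0 by limma-voom.

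The fusion genes were near the limit of what these libraries could count. Mymk had 26, 39 and 6 reads in WT and 18, 34 and 18 reads in mKO, or 0.744, 1.23 and 0.182 TPM against 0.582, 1.03 and 0.595 TPM. The group means were 0.720 ± 0.526 and 0.737 ± 0.257 TPM (SD, n = 3 each), with an exact two-sided permutation p of 1. The lowest library, WT replicate 3, had an exact 95% Poisson interval of 2.20 to 13.1 reads, below that of WT replicate 2, 27.7 to 53.3 reads, within the same group.

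Mymx had 4, 16 and 2 reads in WT and 16, 4 and 4 reads in mKO, or 0.168, 0.744 and 0.0893 TPM against 0.761, 0.179 and 0.195 TPM. A single library in each group stood above the others, WT replicate 2 and mKO replicate 1. For 16 reads the exact 95% Poisson interval was 9.15 to 26.0, and for 4 reads 1.09 to 10.2, so the intervals overlap. The exact two-sided permutation p over the TPM was 0.5. Since 3 against 3 cannot give less than 0.1, this test could not have passed for Mymk or Mymx at any depth. All 6 counts were even, as were 58.56% of all counts above 0, so a read pair may count as 2 and the intervals, which cover counting error only, may be too narrow.

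**Figure D4:**
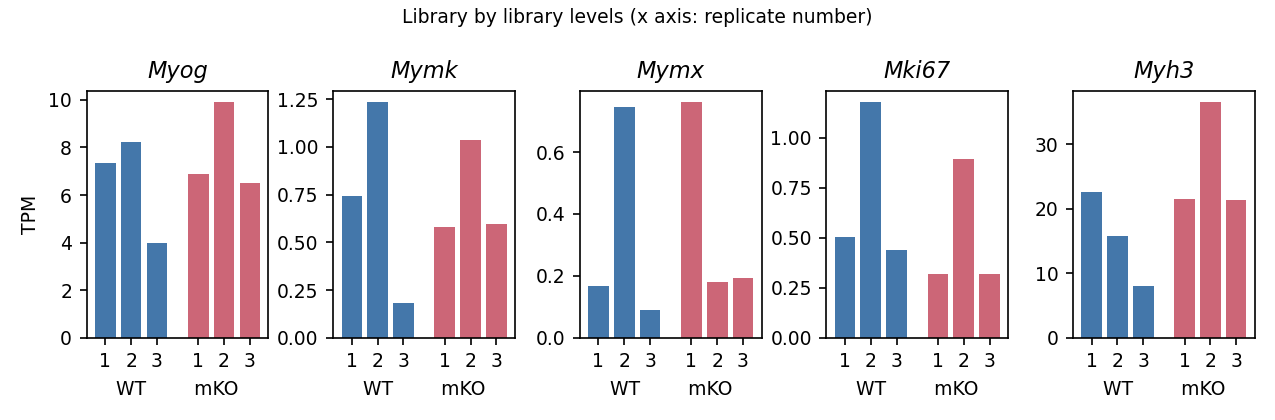
TPM in each of the 3 WT and 3 mKO libraries (x axis, replicate number) for Myog, Mymk, Mymx, the division marker Mki67 and the embryonic myosin Myh3, each on its own axis from 0. For each gene the groups overlap, and replicate 2 of each group has the highest Mymk and Mki67 of its group.

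Of 15 genes of cell division and its control, 9 were below the filter and 6 were tested. Mki67, a marker of cycling cells named after its values were seen, stood at 0.503, 1.18 and 0.438 TPM in WT and at 0.320, 0.895 and 0.318 TPM in mKO. WT replicate 2 and mKO replicate 2 were the highest for Mki67, as they were for Mymk and for Top2a, also named after its values were seen (0.625 and 0.357 TPM in those libraries, 0.161 to 0.239 TPM in the others). Mki67 and Top2a were among the 9 below the filter. Of the 6 tested genes limma called 0, with 0 at an unadjusted p under 0.05 and 0 by limma-voom, and their median log2 fold change was −0.02. The 6 include inhibitors of division, Cdkn1a (0.07), Cdkn2c (−0.27) and Rb1 (0.09), so this median mixes genes of opposite roles and does not measure division. The lowest p belonged to Ccnd1 at 11.0 ± 0.983 and 9.30 ± 1.07 TPM in WT and mKO (SD, n = 3 each, limma adjusted p = 0.474).

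Genes that new or immature fibres express moved in different directions in value. Of 16 listed, 14 were tested and limma called 0, with 3 at an unadjusted p under 0.05 and 0 of 11 by limma-voom. The median was −0.03. Myh3, the embryonic myosin heavy chain, stood at 22.7, 15.7 and 8.02 TPM in WT and at 21.6, 36.5 and 21.4 TPM in mKO. mKO replicate 2 was highest and WT replicate 3 lowest, and the groups overlapped (log2 fold change 0.80, SE 0.34, limma adjusted p = 0.463). Without WT replicate 3 the value was 0.42, and with mitochondrially encoded genes left out it was 0.94 (limma adjusted p = 0.214).

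Myh8, the neonatal myosin heavy chain, had the opposite sign. It stood at 1.89, 2.20 and 1.68 TPM in WT and at 1.12, 1.33 and 1.44 TPM in mKO, with no overlap (log2 fold change −0.35, SE 0.11, limma adjusted p = 0.306). Myosin heavy chains are alike in stretches, so reads may be shared between these genes. Ankrd1, a stretch and stress response gene, stood at 13.9, 10.1 and 9.23 TPM in WT and at 13.8, 35.2 and 12.5 TPM in mKO, with mKO replicate 2 apart from the rest (log2 fold change 0.70, limma adjusted p = 0.546). Without that library the value was 0.25, and with mitochondrially encoded genes left out it was 0.83. The growth factor Igf2 was at 0.22 (adjusted p = 0.338), or 0.34 (adjusted p = 0.0954) with mitochondrially encoded genes left out.

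Partners and regulators of the myogenic factors, 20 of 22 tested, had a median log2 fold change of 0.00, with 10 above and 10 below 0. The list mixes partners with inhibitors such as Id1, so this median does not measure the activity of the myogenic factors. Limma called 0, with 3 at an unadjusted p under 0.05 and 0 of 19 by limma-voom. The lowest p belonged to Smarcd3, the chromatin remodelling subunit BAF60c, which averaged 45.6 ± 1.33 TPM (WT) and 39.4 ± 1.58 TPM (mKO) (SD, n = 3 each, limma adjusted p = 0.209). Eya4, a co-activator in muscle precursors, was at −0.34 (adjusted p = 0.302), and Smyd1, a muscle methyltransferase, was at −0.12 (adjusted p = 0.467). With mitochondrially encoded genes left out, Smarcd3 was at −0.09, against −0.21, and Smyd1 at −0.0058.

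The satellite cell surface, niche and quiescence genes gave a median of −0.05 over 21 tested of 22. Limma called 0, with 3 at an unadjusted p under 0.05 and 0 of 20 by limma-voom. Itga7, the laminin-binding integrin of satellite cells and fibres, averaged 33.2 ± 2.41 TPM over the WT libraries and 26.1 ± 2.08 TPM over the mKO libraries (SD, n = 3 each), with no overlap and a limma adjusted p of 0.160. Fos, an immediate early gene, was at 0.54 on the log2 scale (adjusted p = 0.280), and the cell cycle inhibitor Cdkn1c at −0.47 (adjusted p = 0.281). With mitochondrially encoded genes left out, Fos was at 0.67 and Cdkn1c at −0.37. Sdc3, a satellite cell syndecan, was at −0.21 (adjusted p = 0.507), or −0.11 with mitochondrially encoded genes left out.

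Adhesion and fusion genes beyond Mymk and Mymx had a median of −0.01 over 18 tested of 21, with limma calling 0, 2 at an unadjusted p under 0.05 and 0 of 18 by limma-voom. Dysf, the membrane repair protein dysferlin, had the lowest p, with means of 21.7 ± 0.159 TPM (WT) and 18.0 ± 1.47 TPM (mKO) (SD, n = 3 each, limma adjusted p = 0.219). Its log2 fold change of −0.26 was −0.15 with mitochondrially encoded genes left out.

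Denervation, like regeneration, raises Myog and Ncam1, and its genes were split in value. Of 12 tested of 15, 6 were above and 6 below 0, and the median was 0.00. Limma called 0, with 5 at an unadjusted p under 0.05 and 0 of 11 by limma-voom. Chrnd, the delta subunit of the acetylcholine receptor, stood at 4.84, 4.58 and 5.31 TPM in WT and at 8.43, 7.77 and 6.17 TPM in mKO. All mKO libraries were above all WT libraries (log2 fold change 0.51, SE 0.11, limma adjusted p = 0.141). It was called in 1 of 15 other settings, without mKO replicate 3 (0.62, adjusted p = 0.0428). With mitochondrially encoded genes left out it was at 0.65 (adjusted p = 0.0954).

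Musk, the receptor kinase of the neuromuscular junction, lay the other way at 16.3, 18.1 and 19.6 TPM in WT and at 13.3, 13.7 and 13.7 TPM in mKO. The groups did not overlap (−0.38, SE 0.07, limma adjusted p = 0.0932). Scn4a, the adult muscle sodium channel, was at −0.26 (adjusted p = 0.199), or −0.14 with mitochondrially encoded genes left out. The ubiquitin ligase Trim63 was at −0.61 (adjusted p = 0.217), and at −0.78 (adjusted p = 0.0485) without mKO replicate 3.

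**Figure D5:**
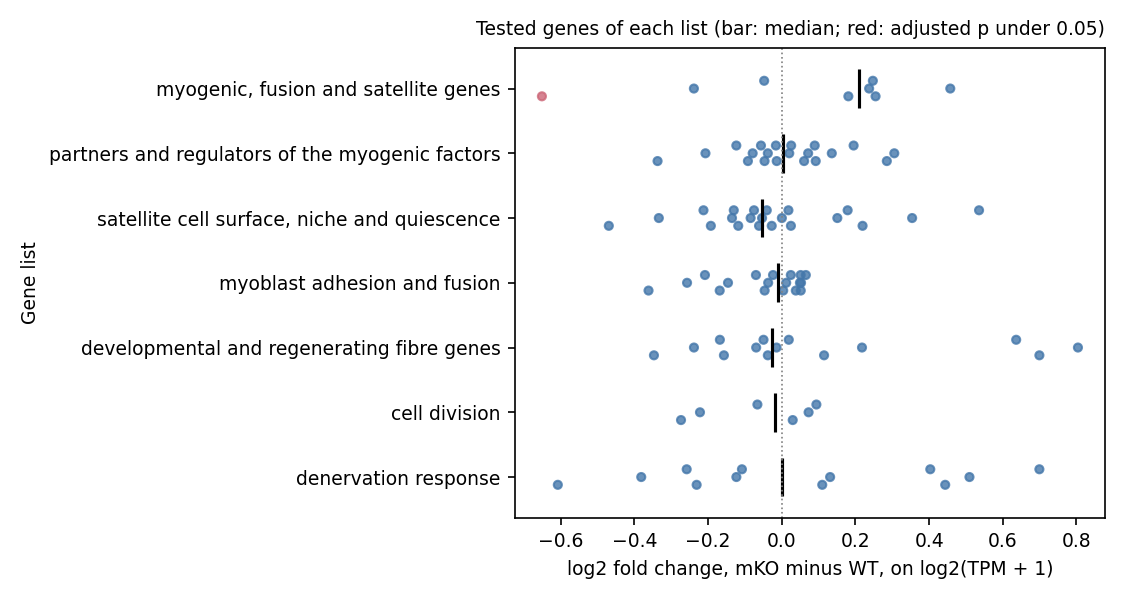
Log2 fold change (mKO minus WT, x axis) of each tested gene in 7 gene lists (y axis), with list medians as bars. Barx2, in red at −0.65, is the only gene past the threshold, and the medians of the other 6 lists lie between −0.05 and 0.00.

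In the 6 lists together, which hold 109 genes, limma called 0 of 90 tested, with 16 (17.8%) at an unadjusted p under 0.05, and limma-voom called 0 of 84. Over all tested genes that share was 10.7%. Markers of 5 other cell types (macrophages, fibro-adipogenic cells, Schwann cells, endothelium and smooth muscle with pericytes) gave 0 of 44 by limma, with 7 (15.9%) at an unadjusted p under 0.05, and 0 of 43 by limma-voom. Macrophage markers, which rise in regenerating muscle, summed to 142 to 166 TPM in WT and 123 to 220 TPM in mKO, with 1 of 10 at an unadjusted p under 0.05. Of these 10, 9 were above 0, and the median log2 fold change was 0.14, against −0.01 over all tested genes. Fibro-adipogenic and fibroblast markers summed to 1286 to 1465 TPM in WT and 1236 to 1688 TPM in mKO. They held 4 of the 7 genes at an unadjusted p under 0.05, 7 of the 10 were above 0, and the median log2 fold change was 0.18. Pdgfra and Cd248, named after their values were seen, were the 2 of these 10 without overlap, both higher in mKO. Over all tested genes 16.0% did not overlap, so this count is near that share. Endothelial and smooth muscle markers each held 1 gene at an unadjusted p under 0.05.

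By pattern, the genes most like Myf6, the highest tested member, over the 6 libraries were Cnot6l (Pearson r = 0.990), H4c18 (0.988) and Tmem159 (0.986). Of 11333 genes compared, 130 had r over 0.9. The 6 points are libraries on a scale of fixed sum, and these values are a description only.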

How the data were processed

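RNA from 6 mouse soleus libraries was poly(A)-selected and made into directional libraries, per the labels' protocols. The authors deposited TPM, in which reads per gene length share a fixed total in each library. Per the submitters' processing notes the genome was GRCm39. Aligner, counting tool, annotation and use of strand are not given in the sources used here. Groups came from the titles.

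limma-trend (limma 3.58.1, R 4.3.3) compared the genotypes on log2(TPM + 1), with no other term. It took the 12301 genes that reached 1 TPM in at least 3 libraries, with Benjamini-Hochberg adjustment over all of them and a threshold of 0.05. This scale understates changes of low genes. Since TPM has a fixed sum, abundant genes that rise lower the rest. Mymk and Mymx were below the filter and were compared by exact permutation. Reads were TPM times GENCODE M21 exon length divided by the value of 1 read in that library. They were whole within 0.05 in all 6 libraries for 93.13% of 22729 genes.

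Members and lists were chosen with earlier results of these data known. All members, Stard7 and up to 4 genes of each list (called ones by size, otherwise those with the smallest p) were named, with not all printed. The fast fibre markers, Mki67 and Top2a fall outside that rule. Alternatives were other filters, pseudocounts and scalings, limma-voom, a replicate block and each library left out.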

Additional observations from a re-analysis of the deposited data

How the results depend on the processing

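Of the 10 genes, 1 was called by limma, and 0 were called with no filter and with a replicate block. Leaving out each library in turn gave 0 to 1, with 0 without WT replicate 1 or 2. Barx2 was at −0.65 with no filter (adjusted p = 0.0742) and with the block (0.0554), at −0.66 without WT replicate 1 and −0.61 without WT replicate 2, and the cause was not tested. Its call held in the other 11 settings. Over all genes, 64 were called, 12 higher and 52 lower. No filter gave 6, of which 5 were among the 64. Mitochondrially encoded genes left out gave 41, of which 20 were lower, and shifted the median over all genes from −0.01 to 0.09. The fits without a library called 4 genes at the fewest (WT replicate 2 left out) and 94 at the most (mKO replicate 3 left out), with 12 without WT replicate 3, 13 without WT replicate 1 or mKO replicate 1 and 26 without mKO replicate 2. The replicate block gave 21 calls. Replicate numbers did not pair the libraries by the rule used, since deviations from the group means correlated at 0.09, 0.05 and 0.13 for numbers 1, 2 and 3. Each library did correlate best with its own number, a hint from the data only. Of 497 values of single genes under other settings, 483 kept sign and call, 6 changed sign, 6 lost a call and 2 gained one. Mymk and Mymx, below the filter, had no call to keep. Their values counted as kept where they moved by less than the larger group SD. All changes of sign were of uncalled genes. Without mitochondrially encoded genes Cdh15 was at 0.0648, Mef2a at 0.0211 and Mcm2 at 0.00595. Over the libraries left out in turn, Myog lay from −0.0249 (WT replicate 3) to 0.420, Cdh15 from −0.119 to 0.0245 (WT replicate 1) and Mcm2 from −0.131 to 0.00403 (WT replicate 2). With 3 libraries a group, the intervals of Myod1 and Myog reach 1.10 and 0.80, so increases of that size are within what these libraries allow.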
